A study of Caenorhabditis elegans with 6 samples.

Results

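The 10 genes described here encode core parts of AMPK and TOR signalling in Caenorhabditis elegans: aak-1, aak-2, par-4, let-363, daf-15, rict-1, raga-1, ragc-1, rheb-1 and rsks-1. They were taken by name from the 47656 genes listed in each table, and all 10 were found once in all 6 tables. The study gave whole worms of the N2 wild type either D-mannose, a hexose, or water, with 3 libraries per group. All worms grew on the OP50 strain of Escherichia coli on NGM plates and were 6 days old at harvest. The labels name no other allele, agent or transgene, and give no dose of mannose. Nothing in the labels says that the libraries of a group came from separate cultures, so p-values measure only the spread between these libraries, which may be technical.

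AMPK is a kinase that switches on when cellular energy is low; a catalytic alpha subunit, encoded in the worm by aak-1 and aak-2, works with beta and gamma subunits and is activated by the LKB1 kinase PAR-4. TOR, encoded by let-363, is a kinase that promotes growth and protein synthesis when nutrients are plentiful. It acts in TORC1 with the Raptor homolog DAF-15 and in TORC2 with the Rictor homolog RICT-1. Amino acids reach TORC1 through the Rag GTPases RAGA-1 and RAGC-1, and RHEB-1 is the GTPase that activates it; the S6 kinase RSKS-1 is a classical TORC1 substrate. In worms, less TOR or S6 kinase activity and more AMPK activity are known to lengthen life, and both pathways act in the germline as well as in somatic tissue.

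The libraries held 3.99e+07 to 4.60e+07 read equivalents each. Their summed FPKM was highest in mannose 1 (961687) and water 3 (1.05e+06), against 838651 to 880100 in the other 4 libraries. Mannose 1 and water 3 stood apart from the other 4 libraries on the first principal component, which held 67.2% of the variance, with scores of −41.7 and −48.2 against 7.68 to 32.95. A list of 18 oocyte and germline markers, all of them tested, followed the same division: its median lay 0.76 and 0.65 log2 units above the mean of the 6 libraries in mannose 1 and water 3, 0.13 above it in mannose 2, and 0.26 to 0.64 below it in mannose 3, water 1 and water 2. The summed level of the list ran from 3057 to 6966 FPKM in mannose and from 3252 to 7701 FPKM in water, and no marker was at 0. Sperm markers, of which 12 of 13 were tested, had a lower mean with mannose in 12 of 12 (summed level 239 to 447.6 against 403.5 to 617 FPKM). Body wall muscle markers did so in 6 of 6 (1221 to 1619 against 1483 to 1589 FPKM). None of these passed the adjusted test. On the log2 scale 3 of 4 tested epidermis markers were also lower. One of them, col-93, had 1188, 0 and 0 FPKM in mannose and 0.014, 1602 and 1855 FPKM in water. The one higher marker, col-10, ran from 0.024 to 12.1 FPKM over the libraries. Tested markers of oocytes and germline (12 of 18), intestine (4 of 7) and neurons (5 of 6) were mostly higher on the log2 scale, as were 54.5% of all tested genes. The part of these cell types in the comparisons that follow was not tested. Marker lists of sperm, intestine, body wall muscle, neurons and epidermis also had no member at 0 in all 6 libraries. Some were near 0, such as spe-9 (sperm) with at most 0.17 FPKM and bli-1 (epidermis) with at most 0.43 FPKM. A value above 0 at this depth therefore does not show that a tissue is present. In whole-worm RNA, fewer cells of a type and less RNA per cell cannot be told apart.

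All 10 genes were expressed above the filter of 1 FPKM in at least 3 libraries, and their levels spanned a wide range. Mean FPKM over the 6 libraries, a value per length of gene, ran from 328 for ragc-1 to 4.41 for let-363. The order from high to low was ragc-1, rheb-1, raga-1, par-4, rsks-1, aak-1, daf-15, aak-2, rict-1 and let-363. The 3 GTPase genes were each above the next gene in the order in 6 of 6 libraries with no overlap of ranges. Among neighbours, par-4 and rsks-1 were not separated (par-4 higher in 4 of 6 libraries), nor were daf-15 and aak-2 (3 of 6), aak-2 and rict-1 (3 of 6), or rict-1 and let-363 (rict-1 higher in 5 of 6, ranges overlapping). Thus the transcripts of the large TOR, Raptor and Rictor proteins and of one AMPK catalytic subunit were the scarce ones, each with a mean above that of no more than 40.4% of the tested genes.

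**Figure D1:**
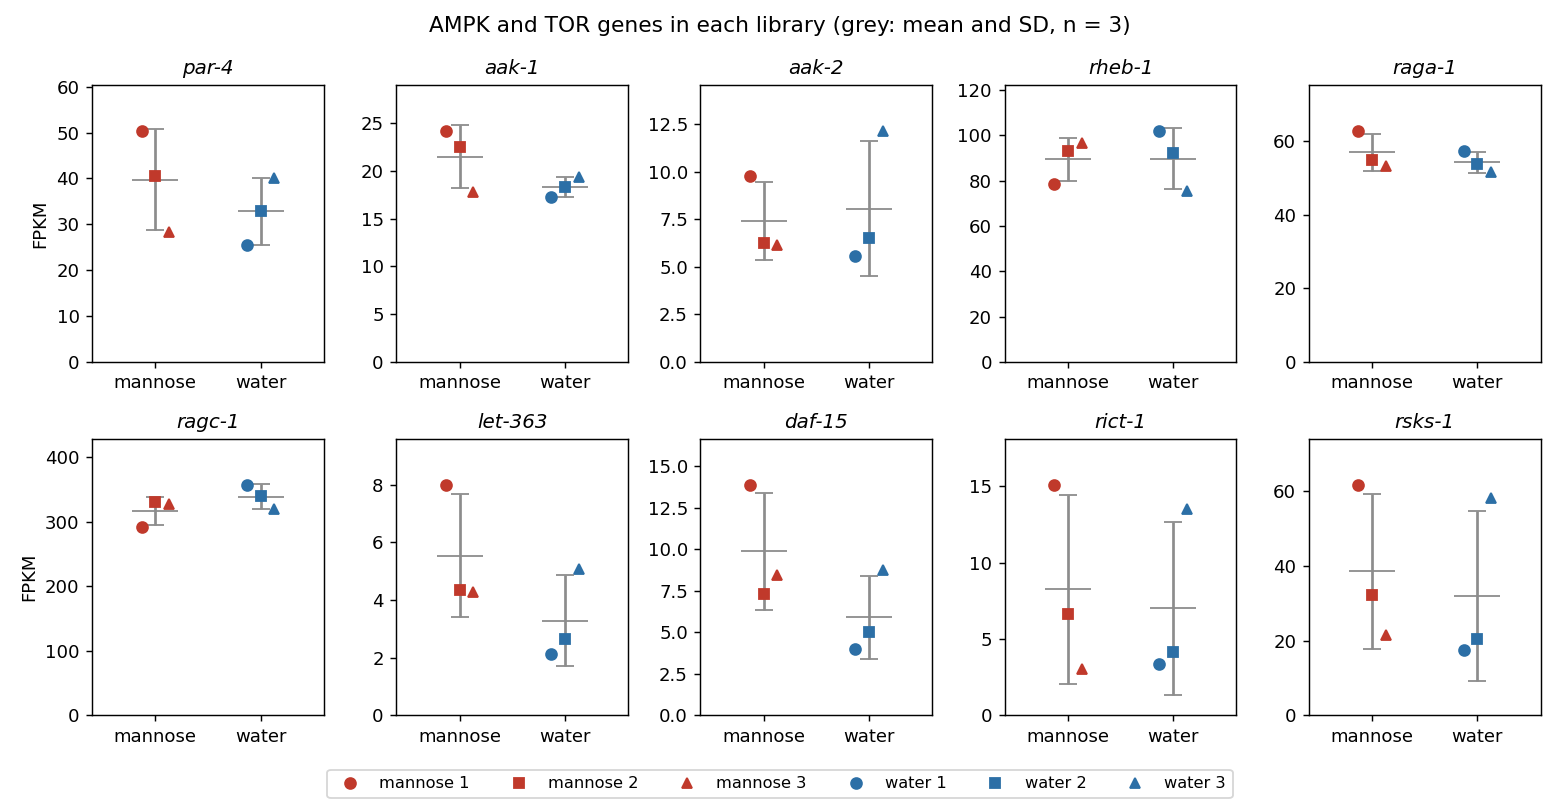
FPKM (vertical axes, each from 0) of the 10 genes in the 3 mannose libraries (red) and the 3 water libraries (blue), with the mean and SD of each group in grey. The groups overlap for every gene, and mannose 1 and water 3 are the highest libraries for aak-2, let-363, daf-15, rict-1 and rsks-1.

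Of the 3 AMPK genes among the 10, par-4 and aak-1 had the higher means. The LKB1 gene par-4 (WBcel235 chromosome V, 18098676 to 18106868, plus strand) had 50.3, 40.6 and 28.2 FPKM in mannose 1, 2 and 3 and 25.5, 32.8 and 40.1 FPKM in water 1, 2 and 3. Mannose 1 was the highest and water 1 the lowest, and the groups overlapped. The means were 39.7 ± 11.1 and 32.8 ± 7.32 FPKM (SD, n = 3), which is 0.25 higher in mannose on the log2 scale (SE 0.27).

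The gene aak-1 (chromosome III, 8756983 to 8761092, minus strand) had 24.2, 22.5 and 17.8 FPKM in the mannose libraries and 17.2, 18.4 and 19.3 FPKM in the water libraries. Mannose 1 and mannose 2 lay above all water libraries, and mannose 3 lay among them. Its mean was 0.21 higher in mannose on the log2 scale (SE 0.17). The paralog aak-2 (chromosome X, 16796087 to 16803404, plus strand), the alpha subunit gene best known for its part in worm lifespan, had 9.81, 6.27 and 6.15 FPKM in mannose and 5.57, 6.49 and 12.1 FPKM in water. Here water 3 and mannose 1 were high and the other 4 libraries lay within a narrow range. The log2 difference, mannose minus water, was −0.068 (SE 0.32), and 0.23 without water 3. In the annotation 100 exonic bases of aak-1 overlap sma-2 (mean 2.21 FPKM) and 78 of aak-2 overlap mec-4 (0.038 FPKM), both on the other strand. Which strand setting the counting had was not stated, so reads of such overlaps cannot be told apart.

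As listed, the GTPase genes were the most abundant of the 10 and the most even across libraries. The Rag gene ragc-1 (chromosome IV, 11603613 to 11604933, minus strand) had 292, 331 and 328 FPKM in mannose and 358, 339.7 and 319.7 FPKM in water. Its means were 317 ± 21.9 and 339 ± 19.02 FPKM, and its coefficient of variation over the 6 libraries was 6.67%, the lowest of the 10 genes. Mannose 1 and water 3 were the lowest libraries for this gene. The Rheb gene rheb-1 (chromosome III, 9454163 to 9456030, minus strand) had 78.6, 93.2 and 96.5 FPKM in mannose and 102, 92.1 and 75.3 FPKM in water. Again mannose 1 and water 3 were the lowest, and the group means of 89.5 ± 9.52 and 89.8 ± 13.5 FPKM were nearly equal.

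For raga-1 the listed value may cover more than the gene itself. The table gives raga-1 a span on chromosome II from 11297698 to 11302832 and a length of 3421 bases, whereas the Ensembl annotation of the same build places the gene at 11301359 to 11302776 with 1266 exonic bases. The added stretch is that of saps-1 (11297688 to 11301260, same strand), which is listed as a gene of its own at 20.1 to 75.4 FPKM. The sources used here do not say how reads were divided between the overlapping models, so the level of raga-1 and its place in the order are uncertain. Smaller mismatches of length held for par-4, listed at 2328 bases against 1854 exonic bases in Ensembl, and for aak-1, listed at 2065 against 2337. Because FPKM is a value per length, the levels of par-4 and aak-1 carry some of this uncertainty too. As listed, raga-1 had 62.7, 54.9 and 53.3 FPKM in mannose and 57.2, 53.6 and 51.7 FPKM in water. Mannose 1 was the highest and water 3 the lowest, a narrow spread beside that of saps-1.

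The TOR kinase gene and its TORC1 partner had the largest differences between the groups among the 10 genes, and neither passed the test. The gene let-363 (chromosome I, 5245743 to 5263426, plus strand) had 7.996, 4.35 and 4.27 FPKM in mannose 1, 2 and 3 and 2.14, 2.64 and 5.07 FPKM in water 1, 2 and 3. Mannose 1 was the highest library and water 3 the second, and water 1 and water 2 lay below all others. The means were 5.54 ± 2.13 and 3.28 ± 1.57 FPKM, or 0.62 on the log2 scale (SE 0.33, 95% interval −0.18 to 1.42). The Raptor gene daf-15 (chromosome IV, 9386208 to 9394992, plus strand) had 13.9, 7.31 and 8.47 FPKM in mannose and 3.98, 5.03 and 8.74 FPKM in water. The order was the same at the ends: mannose 1 highest, water 3 next, water 2 and water 1 lowest. The means were 9.89 ± 3.52 and 5.92 ± 2.50 FPKM, or 0.67 on the log2 scale (SE 0.33, 95% interval −0.13 to 1.47).

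The differences of let-363 and daf-15 depended on single libraries. Without mannose 1 the log2 differences were 0.37 for let-363 and 0.42 for daf-15, without water 1 they were 0.43 and 0.46, and without water 3 they were 0.91 and 0.94. Without both mannose 1 and water 3 they were 0.65 and 0.69, with unadjusted limma p of 0.0070 and 0.0097 and an adjusted p of 0.68 for each. That fit has 1 library fewer in each group. In it 713 of 11237 tested genes had an unadjusted limma p under 0.05, against 532 with all 6 libraries. Both let-363 and daf-15 are long: their listed lengths of 8562 and 5862 bases exceed those of 99.7% and 98.9% of the tested genes. After the dependence of each library on gene length was taken out, the log2 differences were 0.37 (unadjusted p = 0.065) and 0.44 (unadjusted p = 0.039), both with a limma adjusted p of 0.9997. Exons of daf-15 overlap those of col-121 on the other strand by 107 bases (mean 0.51 FPKM).

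The Rictor gene and the S6 kinase gene had the largest coefficients of variation over the 6 libraries among the 10 genes, 70.1% and 56.1%, with their highest values in mannose 1 and water 3. The gene rict-1 (chromosome II, 13098239 to 13116810, minus strand) had 15.1, 6.62 and 3.05 FPKM in mannose and 3.37, 4.12 and 13.5 FPKM in water. The highest library was 4.96 times the lowest, the widest range of the 10 genes, and both of these were mannose libraries. Its exons share 37 bases with those of col-86 on the same strand (mean 0.42 FPKM). The gene rsks-1 (chromosome III, 11245120 to 11252281, plus strand) had 61.8, 32.2 and 21.6 FPKM in mannose and 17.5, 20.3 and 58.2 FPKM in water. Mannose 1 and water 3 stood well above the rest for both genes. The log2 differences between groups were 0.20 (SE 0.66) for rict-1 and 0.34 (SE 0.57) for rsks-1, so differences of more than 2-fold in either direction lie inside their intervals (−1.40 to 1.81 and −1.05 to 1.72). Without mannose 1 the values were −0.31 and −0.062, and without water 3 they were 0.74 and 0.86.

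The 10 genes thus fell along a gradient in how far mannose 1 and water 3 differed from the other libraries. Mannose 1 and water 3 were the highest libraries for 5 of the 10, namely rict-1, rsks-1, let-363, daf-15 and aak-2, as they were for 28.6% of all tested genes. They were the lowest for 2, rheb-1 and ragc-1, as for 21.5% of all tested genes. For par-4, aak-1 and raga-1 mannose 1 was the highest but water 3 was not second. Listed gene length differed along this gradient too. It was 5017 bases for rict-1, 3050 for rsks-1, 8562 for let-363, 5862 for daf-15 and 2431 for aak-2. For par-4 it was 2328, for aak-1 2065, for raga-1 3421, for ragc-1 1101 and for rheb-1 1192. The parts of the markers and of gene length in these differences were not tested. Counting error was small beside this spread: the 10 genes had from 635 to 19043 read equivalents per library, which corresponds to a counting error of at most 3.97%, against coefficients of variation of 6.67% to 70.1% over the 6 libraries.

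**Figure D2:**
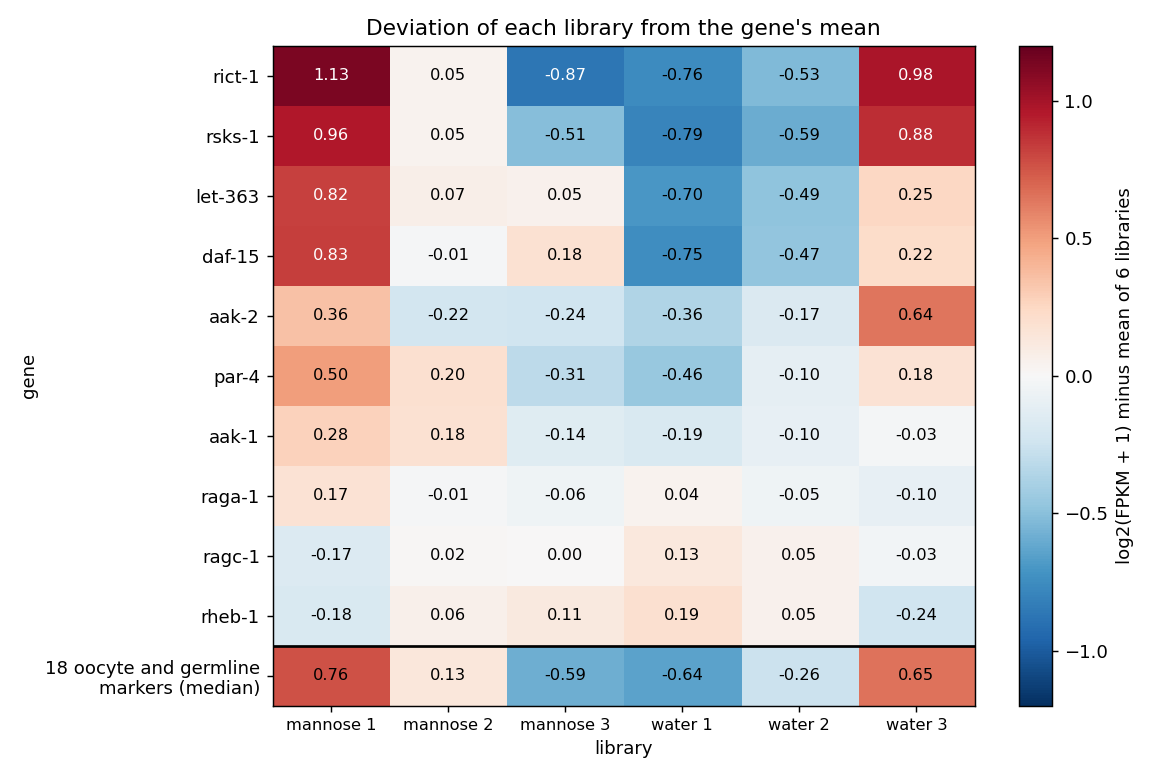
Deviation of log2(FPKM + 1) in each library (columns) from the mean of the 6 libraries, for the 10 genes and for the median of 18 oocyte and germline markers (rows); red is above and blue below the mean. The values of rict-1 and rsks-1 in mannose 1 and water 3 lie 0.88 to 1.13 above the mean, and those of ragc-1 and rheb-1 lie below it.

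The comparison of mannose with water asks whether transcripts of these regulators differ in worms given the sugar. None of the 10 genes passed a Benjamini-Hochberg adjusted p of 0.05 with limma on log2(FPKM + 1), where 0 of 11237 tested genes (0%) passed, and each had an adjusted p of 0.9999 or more. The smallest p over all genes was that of C08E8.10 (log2 difference −1.06, adjusted p = 0.88). None had an unadjusted p under 0.05 either, against 4.73% of all tested genes, and 0 genes were called by limma-voom. The groups of libraries overlapped for all 10, while they did not overlap in 10.7% of tested genes. On the log scale 7 means were higher in mannose, by 0.069 to 0.67, and 3 were lower, with a median of 0.21; over all tested genes 54.5% were higher and the median was 0.015. That median was 0.034 without mannose 1, 0.093 without water 1, 0.094 without water 2, 0.33 without water 3 and 0.40 without mannose 3, and it was 0.070 with the length trend removed.

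How far a difference can be bounded depended on the gene. For ragc-1 the 95% interval of the fold, on the FPKM + 1 scale, ran from 0.78 to 1.12, for rheb-1 from 0.77 to 1.30 and for raga-1 from 0.85 to 1.29, so 2-fold differences lie outside them. The raga-1 interval bounds only its listed value, which may hold reads of saps-1. In this fit, which treats the libraries as unpaired, the intervals of aak-1 (0.88 to 1.53), par-4 (0.77 to 1.86) and aak-2 (0.56 to 1.62) also exclude a 2-fold difference. With the replicate number as a block the SE of the log2 difference was larger, 0.34 for par-4 and 0.37 for aak-2. Whether a 2-fold difference stays excluded with such a block was not worked out. Those of let-363 (0.88 to 2.68) and daf-15 (0.91 to 2.77) include 2-fold higher levels in mannose, and those of rict-1 (0.38 to 3.51) and rsks-1 (0.48 to 3.30) include 3-fold higher levels in mannose. These intervals are not adjusted for the number of genes.

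**Figure D3:**
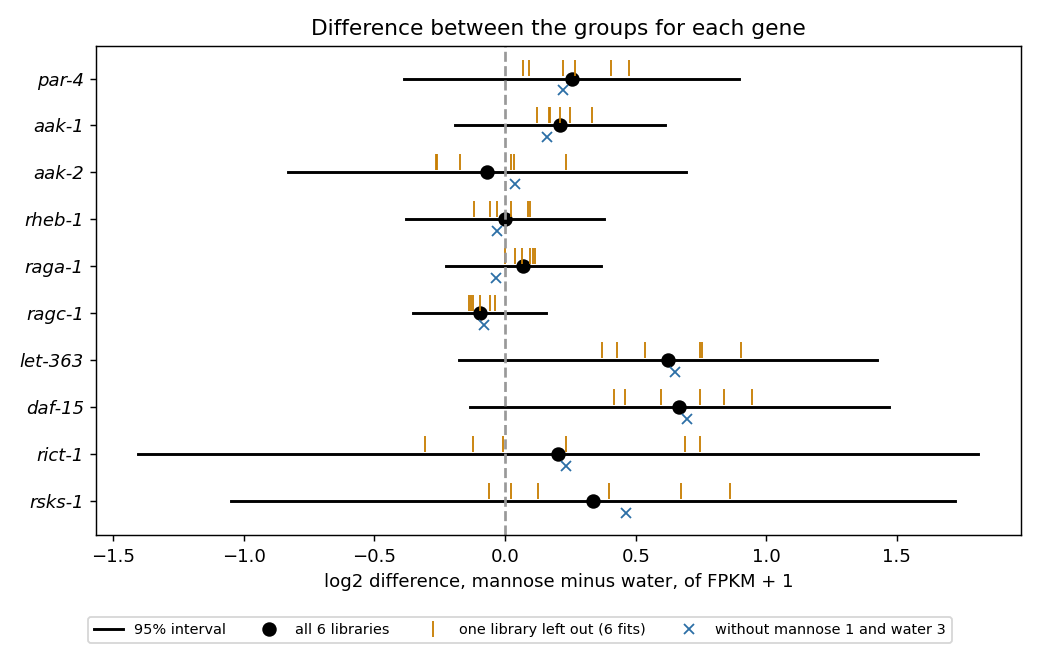
Log2 difference of FPKM + 1, mannose minus water (horizontal axis), for each gene with all 6 libraries (black point, 95% interval as a line), with one library left out in turn (orange ticks) and without mannose 1 and water 3 (blue crosses). All 10 intervals include 0, and let-363 and daf-15 stay above 0 in each of the 6 fits with one library left out, from 0.37 to 0.94.

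Ratios of 2 genes within a library do not depend on how libraries were scaled. Of 5 pairs compared, none could go below a p of 0.1: with 3 libraries against 3, that is the smallest a two-sided exact permutation test can give. The ratio of aak-2 to aak-1 in FPKM was 0.41, 0.28 and 0.35 in mannose and 0.32, 0.35 and 0.63 in water, so aak-1 was the more abundant catalytic subunit transcript in 6 of 6 libraries (exact permutation p = 0.5, 0.6 adjusted over the 5 pairs). The ratio of rict-1 to daf-15, the genes of the partners specific to TORC2 and TORC1, was 1.09, 0.91 and 0.36 in mannose and 0.85, 0.82 and 1.55 in water (exact permutation p = 0.6, adjusted 0.6). Mannose 3 and water 3 were thus at opposite ends, and the groups overlapped.

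The pairs par-4 to aak-2 and rsks-1 to let-363 overlapped between groups too, each with an exact permutation p of 0.2 (adjusted 0.33). The ratio of raga-1 to ragc-1 was 0.21, 0.17 and 0.16 in mannose and 0.16, 0.16 and 0.16 in water. Its groups did not overlap, but only by the narrow gap between 0.1624 in mannose 3 and 0.1616 in water 3. The log2 difference was 0.17, with the smallest exact permutation p that the design allows, 0.1 (adjusted 0.33). That difference was 0.038 without mannose 1, and it carries the uncertainty of the raga-1 gene model.

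Across libraries, the closest profile to that of let-363 was that of daf-15. Closeness was measured as the root mean square distance between log2(FPKM + 1) values centred on each gene's mean over the 6 libraries. The distance between let-363 and daf-15 was 0.067, the smallest from let-363 to any of the 11236 other tested genes, whose median distance was 0.54. Seen from daf-15, let-363 was likewise the closest of all, a look taken after the first value was known. The ratio of daf-15 to let-363 in FPKM stayed within 1.68 to 1.98 while each gene ranged 3.49-fold and 3.74-fold over the libraries. The next genes in the order from let-363 were D2096.12 at 0.071 and ced-7, a phagocytosis transporter gene, at 0.073.

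The closeness of the pair depended in part on length and on the libraries that stand apart. With a pseudocount of 0.1 the distance was 0.082 and still the smallest. With libraries scaled to equal sums it was 0.070, with 1 gene closer. With the length trend removed it was 0.10, with 122 genes (1.09%) closer to let-363, and without mannose 1 and water 3 it was 0.080, with 32 genes closer. All points share the same 6 libraries, so the distance is a description and was given no test.

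The profile of aak-2 was closest to rps-1, a gene of a small ribosomal subunit protein, at a distance of 0.046, followed by fubl-3 and F53G12.9 at 0.050 each. Its nearest among the 10 genes was par-4 at 0.26, with 13.7% of tested genes closer, and its paralog aak-1 lay at 0.33, with 27.9% closer. The Rictor and S6 kinase genes lay 0.17 apart, with 1.91% of tested genes closer to rict-1 than rsks-1 was, a share that was 4.72% with the length trend removed and 10.4% without mannose 1 and water 3. The GTPase genes rheb-1 and ragc-1 lay 0.10 apart, with 11.4% of tested genes closer to rheb-1, and with 4.20% closer without mannose 1 and water 3.

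The other genes of the pathway showed the same absence of calls. Of 12 further AMPK subunits and upstream genes, 10 were tested and 0 passed the adjusted test. On the log2 scale the means of 7 were higher with mannose and those of 3 lower, with a median of 0.088. The gamma subunit gene aakg-3 and the calcium/calmodulin-dependent kinase kinase gene ckk-1 stayed below 1 FPKM in all libraries and were not tested. The genes with the smallest p were mop-25.3 and mop-25.2, for MO25 scaffold proteins that work with LKB1, aakg-5 and the beta subunit gene aakb-1. The gene mop-25.3 had 31.6, 32.2 and 30.8 FPKM in mannose and 29.1, 28.7 and 23.8 FPKM in water, with no overlap and an unadjusted limma p of 0.18. Those of mop-25.2, aakg-5 and aakb-1 were 0.23, 0.23 and 0.34, with overlapping groups.

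Among 12 partners of TOR and regulators at the lysosome, all tested, the means of 8 were higher with mannose and those of 4 lower; the median on the log2 scale was 0.13, with 0 adjusted calls. Groups did not overlap in 2 of them, both higher in mannose, as in 5.42% of tested genes. The gene lmtr-5, of the Ragulator complex that anchors Rag GTPases to the lysosome, had 63.8, 65.6 and 75.3 FPKM in mannose and 55.4, 56.0 and 43.1 FPKM in water. On the log2 scale the means differed by 0.40, SE 0.15 (unadjusted p = 0.036, adjusted p = 0.9999). The gene nprl-3, of the GATOR1 complex that restrains TORC1, had 43.2, 40.7 and 38.5 FPKM in mannose and 31.1, 34.6 and 33.0 FPKM in water, so that the log2 values differed by 0.30, SE 0.12 (unadjusted p = 0.049, adjusted p = 0.9999). Both p-values moved with the processing. With libraries scaled by their upper quartile the unadjusted limma p was 0.18 for lmtr-5 and 0.14 for nprl-3. With the length trend removed it was 0.016 and 0.067. Another Ragulator gene, lmtr-2, had 130.1 ± 22.4 FPKM in mannose and 155 ± 16.6 FPKM in water, with overlapping groups. The groups also overlapped for clk-2, the TEL2 homolog that helps mature TOR-family kinases, at 27.4 ± 2.03 and 23.5 ± 2.84 FPKM.

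Of 23 genes acting downstream of AMPK or TOR, 22 were tested, the means of 12 were higher with mannose and those of 10 lower; the median on the log2 scale was 0.014, with 0 adjusted calls. The FoxA gene pha-4 was below 1 FPKM in all libraries and was not tested. The TORC2-dependent kinase gene akt-1 had 113, 118 and 97.7 FPKM in mannose and 91.1, 94.3 and 91.0 FPKM in water. Its groups did not overlap, and the log2 values differed by 0.24, SE 0.11 (unadjusted p = 0.075, adjusted p = 0.9999). The elongation factor 2 kinase gene efk-1, the autophagy regulator gene hlh-30 and the cap-binding factor gene ife-1 followed with unadjusted p of 0.25, 0.25 and 0.28. In 13 of the 22 genes mannose 1 and water 3 were the highest libraries, against 28.6% of all tested genes. The counts were 5 of 10 for the AMPK subunits and upstream genes and 4 of 12 for the TOR partners and lysosomal regulators. Among the oocyte and germline markers it was 15 of 18. Examples chosen after their values were seen are the scaffold gene ifg-1 (55.2 and 50.8 FPKM against 9.84 to 18.1 FPKM) and the factor gene eef-2 (2543 and 2995 against 782 to 1153 FPKM).

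**Figure D4:**
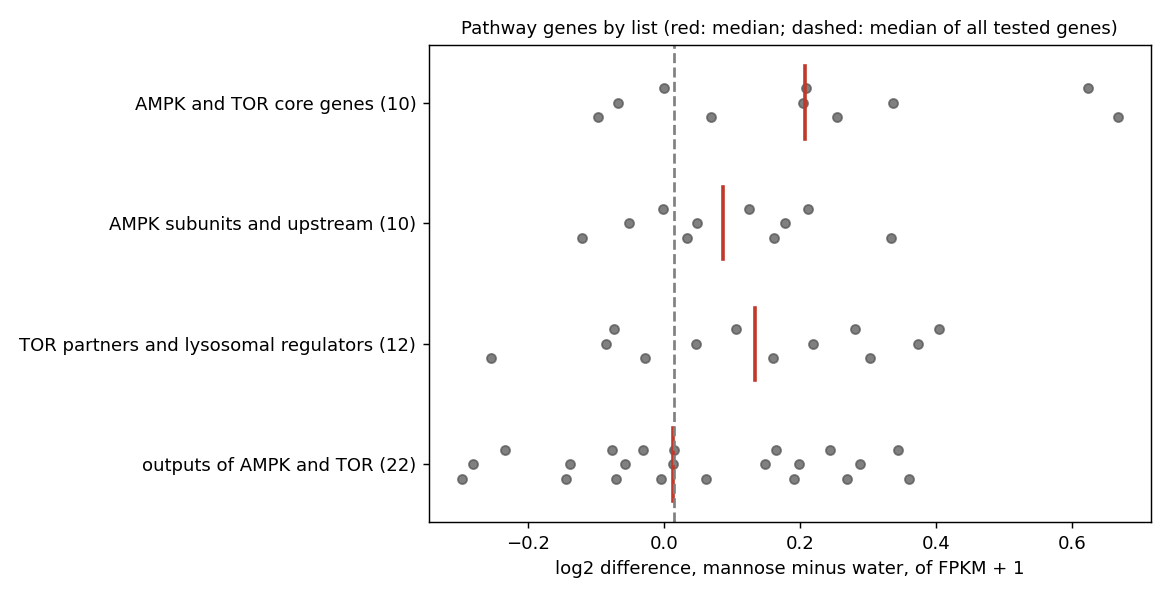
Log2 difference of FPKM + 1, mannose minus water (horizontal axis), of each tested gene (points) in the 10 core genes and the 3 other lists, with the median of each list in red and the median of all 11237 tested genes as a dashed line. The highest points are daf-15 at 0.67 and let-363 at 0.62, followed by lmtr-5 at 0.40.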

How the data were processed

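RNA from whole worms was sequenced in 6 libraries. Per the submitters' processing notes, cutadapt, FastQC and HISAT2 2.1.0 were used with WBcel235; the sources used here name neither a counting tool nor a strand setting. Each table deposited by the authors lists FPKM by gene. Multiplied by gene length, 95.0% to 95.8% of low values (up to 20 reads) were whole multiples (tolerance 0.05) of the step that 1 read gives in that library, from which read equivalents were taken; 1927 genes hold no value.

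Because the values are FPKM and not counts, limma 3.58.1 (R 4.3.3; trend, robust) was run on log2(FPKM + 1), a scale that understates differences of low genes, over 11237 genes with at least 1 FPKM in at least 3 libraries, and p-values were adjusted over all of them. The limma fit was tested on simulated data with independent noise of equal size for all genes. Those data lacked the division of libraries seen here. Ratios used exact permutation tests (scipy 1.17.1). The 10 genes, the other lists and the alternatives were chosen with earlier results of these data known. The text names all 10 genes, the 4 smallest p of each other pathway list, the smallest p over all genes and the 3 closest profiles to aak-2 and let-363. Positions are those of the tables, on WBcel235, with the Ensembl annotation of that build for comparison.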

Additional observations from a re-analysis of the deposited data

How the results depend on the processing

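None of the 10 genes, and none of the other pathway genes, passed the adjusted limma test in any of the 16 alternative fits. Over all genes 0 to 2 were called with one library left out (linc-44 and dml-1 without mannose 1) and 3 without mannose 1 and water 3, none of them among these genes. The direction was the same in every fit for par-4, aak-1, ragc-1, let-363 and daf-15. Fits with another filter or with replicate blocks could not change it, because they leave the log2 difference of a gene as it was. With one library left out, the log2 difference ran from −0.27 to 0.23 for aak-2, from −0.31 to 0.74 for rict-1, from −0.00014 to 0.11 for raga-1, from −0.12 to 0.096 for rheb-1 and from −0.062 to 0.86 for rsks-1. Signs also turned without mannose 1 and water 3 for aak-2 (0.040) and raga-1 (−0.033), with length trends removed for rict-1 (−0.0099), raga-1 (−0.095) and rheb-1 (0.014), and with equal sums per library, an alternative added after the data were seen, for rheb-1 (0.069); the cause was not tested. With FPKM of at least 5 in at least 3 libraries, let-363 was not tested. The labels do not say whether libraries of the same number were handled as pairs. Deviations from the group means correlated at −0.74, 0.24 and −0.71 between same-numbered libraries, and mannose 1 was closest to water 3 (0.77). These correlations cannot decide on pairing, because the deviations within a group sum to 0 and so are not independent. With the replicate number as a block, 0 genes were called. With groups of equal size such a block cannot change the log2 differences, so only their errors could differ.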
